A study of Mus musculus with 30 samples.

Results

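The comparison described here is the response of distal hindlimb mesenchyme to 1 day of BMP4: 2 cultures with 20 ng/ml BMP4 against 2 cultures in control medium, 4 of the 30 arrays of the study. The cells came from the distal part of hindlimb buds of CD-1 mouse embryos at stage E10.5, and the labels call them the early population. They were cultured as dense micromasses, spots in which limb mesenchyme condenses and forms cartilage, in medium with 10% fetal bovine serum, which both groups received, and BMP4 was added when the medium was. RNA was collected from cultures of about 280 embryos without amplification, so each array reads pooled animals. The labels name no transgene or deletion, and they call the 2 cultures of each group biological replicates. Their protocol text also mentions cultures of stage E11.5, at which no array is placed by its own labels. RNA was measured on Affymetrix mouse genome arrays, and values are log2(signal + 16), on which a difference of 1 is a factor of 2. The same treatment at day 2, and at day 1 in an intermediate population (distal forelimb) and a late population (proximal forelimb), served as comparison groups of 4 arrays each.

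Bone morphogenetic proteins bind pairs of type I and type II receptors, which phosphorylate SMAD1, SMAD5 and SMAD8 (the gene Smad9). With SMAD4 these enter the nucleus and switch on genes of the Id, Msx, Dlx and Tbx families, together with inhibitors of the pathway itself such as Noggin, Smad6, Smad7 and Bambi. In the limb bud BMPs shape the margins of the bud, oppose FGF signals from the apical ridge, promote cell death between the digits and, in cells that are ready for it, promote cartilage.

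Limb type matched the labels on the 4 arrays. The hindlimb factors Pitx1 and Tbx4 read 9.54 to 9.95 and 10.09 to 10.46, and the forelimb factor Tbx5 read 4.73 to 5.85, close to the level under which genes were treated as dim (5.29 to 5.54). The deposited signals of every array have a trimmed mean of 150. The median signal was 36.7 and 40.6 on the control arrays and 46.4 and 40.5 on the BMP4 arrays, and 46.4 is the highest of the 24 arrays of days 1 and 2. The replicates correlated with r = 0.977 (control) and 0.970 (BMP4) across genes, which are not independent replicates. The 3' minus 5' signal of Gapdh, a sign of RNA or labelling quality, was -0.50 and -0.09 on the BMP4 arrays and -0.37 and -0.31 on the controls. With 2 arrays a group, their number limits the precision. Standard errors and p-values rest on 1 spread per gene, shared by all 24 arrays of days 1 and 2. They do not measure the spread between these 4 arrays alone.

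Of 14947 genes tested, 258 (1.73%) rose and 170 (1.14%) fell with BMP4 (limma, Benjamini-Hochberg adjusted p under 0.05). Without adjustment 2342 of the 14947 had a limma p under 0.05, the background for the unadjusted counts of gene lists below. The rises were larger than the falls: their median was 1.12 (0.44 to 4.57), with 155 genes past 1 and 28 past 2, against a median of -0.83 (-0.40 to -2.93) for the falls, with 60 past 1 and 8 past 2. All 428 genes had both BMP4 arrays beyond both control arrays. Over all tested genes the BMP4 arrays lay above the controls in 26.1% and below in 17.3%, so that property alone is common here. The median of all genes was 0.05. The median was 0.13 in the dimmest 3737 genes and -0.02 in the brightest 3736, with 36 rises and 8 falls among the dimmest and 55 rises and 86 falls among the brightest. With each array centred on its median the split became 207 rises and 214 falls. Leaving out BMP4 replicate 1 gave 342 genes (172 rises and 170 falls), of which 225 were among the 428. Leaving out BMP4 replicate 2, control replicate 1 or control replicate 2 left 224, 116 and 207 genes past the threshold, of which 178, 110 and 180 were among the 428.

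**Figure D1:**
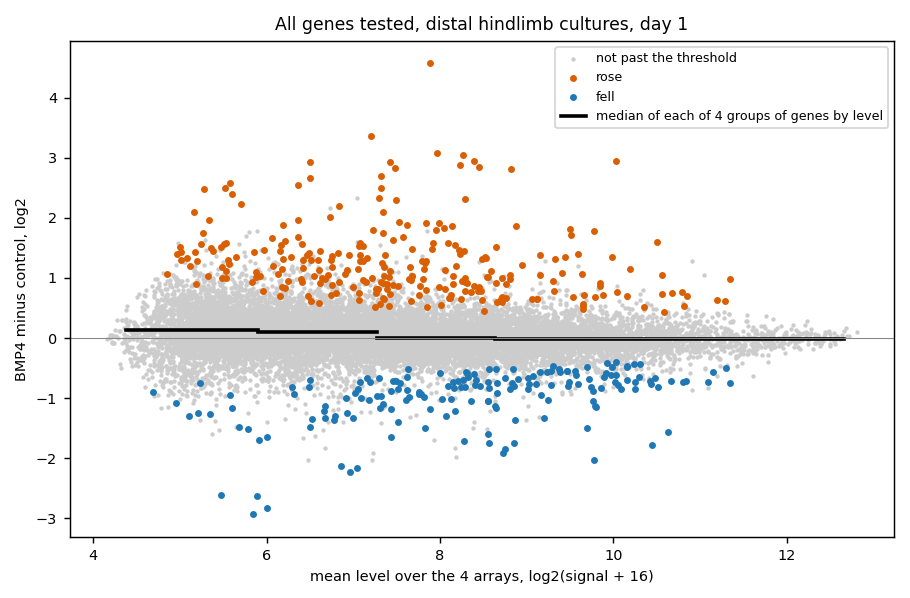
Each point is 1 of 14947 genes; the horizontal axis is its mean level over the 4 arrays and the vertical axis the BMP4 minus control difference, both on the log2(signal + 16) scale. Orange points rose (258), blue points fell (170), and the black bars are the medians of 4 groups of genes of equal size by level, from 0.13 at the dim end to -0.02 at the bright end.

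BMP target and feedback genes were the list with the most rises. Of its 25 tested members 13 rose and 0 fell, with a median of 1.35 against 0.05 for all genes. Dlx2, a homeobox factor of the distal-less family, read 5.47 and 5.57 in control and 8.68 and 9.08 with BMP4, a rise of 3.36 ± 0.54 (standard error; adjusted p = 0.0019). The 2 Msx factors, which respond to BMP at the limb margins, rose together. Msx2 read 6.83 and 7.99 in control and 9.98 and 10.47 with BMP4 (2.81 ± 0.40), and Msx1 read 7.75 and 8.14 against 9.64 and 9.98 (1.86 ± 0.28). Another probe set of Msx2 read 0.995 (limma, adjusted p = 0.0339) and another of Msx1 0.951 (adjusted p = 0.0581), so both sizes depend on the probe set. On the brightest probe set of Dlx2, Msx2 and Msx1 the lowest treated array was more than 1 above the highest control array.

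The Id genes, which encode helix-loop-helix proteins that block differentiation factors and are standard early BMP targets, did not move as 1 group. Id4 read 8.56 and 9.21 in control and 10.61 and 10.74 with BMP4, a rise of 1.79 ± 0.31 (adjusted p = 0.0036). Id2 rose by 0.62 ± 0.15 (adjusted p = 0.0342) from an already high level of 11.11 and 10.66. Id1 stood at 10.15 and 9.88 in control and 10.00 and 10.06 with BMP4, a difference of 0.01 ± 0.21, and Id3 differed by 0.38 ± 0.22 (adjusted p = 0.418), with overlapping arrays for both. Thus 2 of the 4 members passed the threshold.

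The pathway's brakes Smad6, Smad7 and Bambi rose. Smad6, an inhibitory SMAD, read 8.49 and 8.82 in control and 10.21 and 10.54 with BMP4 (1.72 ± 0.30, adjusted p = 0.00389). Smad7, the other inhibitory SMAD, rose by 1.05 ± 0.24, and Bambi, a receptor decoy without a kinase, by 1.35 ± 0.32. The parts that carry the signal showed less: of 19 tested receptors and SMADs 4 rose and 0 fell (median 0.06). Beside those brakes the other was Bmpr2, the type II receptor, at 9.91 and 9.69 against 10.46 and 10.55 (0.70 ± 0.13, adjusted p = 0.00595). Other probe sets of Bmpr2 read 0.32 and 0.44 (limma, adjusted p = 0.589 and 0.602), and Bmpr2 did not pass with the mean of probe sets. Smad1, Smad4 and Smad5 differed by 0.06 ± 0.11, 0.04 ± 0.10 and -0.27 ± 0.24, and the type I receptors Bmpr1a and Acvr1 by 0.04 ± 0.14 and 0.32 ± 0.17, none past the threshold. The condensation-linked receptor Bmpr1b read 7.61 and 7.27 in control and 6.98 and 6.20 with BMP4 (adjusted p = 0.292).

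Secreted antagonists split by member. Nog, which binds BMPs and keeps them off their receptors, read 5.57 and 6.70 in control and 8.54 and 8.38 with BMP4 (2.32 ± 0.31, adjusted p = 0.0004). Chrdl2, a chordin relative, rose from 5.77 and 5.25 to 7.18 and 7.22 (1.69 ± 0.23, adjusted p = 0.000643), and Bmper, a matrix-bound modulator of BMP, from 8.06 and 7.61 to 9.30 and 9.00 (1.31 ± 0.17, adjusted p = 0.000286). Smoc2, a secreted calcium-binding matrix protein, fell from 8.34 and 7.91 to 6.17 and 5.75 (-2.16 ± 0.51, adjusted p = 0.0277). The remaining 15 of the 19 tested members did not pass. Among them Grem1, the limb's main antagonist in the FGF and hedgehog loop, differed by 0.50 ± 0.43 with overlapping arrays. Chrdl1 read 8.17 and 8.19 in control against 7.38 and 5.17 (adjusted p = 0.12), where the treated replicates differed by more than 2.

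Of 10 tested BMP ligands 1 rose and 1 fell. Bmp5 read 7.36 and 6.81 in control and 7.88 and 8.02 with BMP4 (0.86 ± 0.19, adjusted p = 0.0158). Other probe sets of Bmp5 read 0.27 and 0.75 (limma, adjusted p = 0.663 and 0.222), and Bmp5 did not pass with the mean of probe sets. Bmp2 read 7.61 and 7.22 against 6.43 and 6.40 (-1.0 ± 0.21, adjusted p = 0.0155). The transcripts of Bmp4 itself and of Bmp7 differed by -0.93 ± 0.40 and -1.40 ± 0.52 without passing (adjusted p = 0.264 and 0.189), although both treated arrays lay below both controls. Gdf5, the ligand of joint interzones, differed by -0.71 ± 0.40 (adjusted p = 0.419).

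The counts of this pathway depended on single arrays. Without BMP4 replicate 2 or without control replicate 1, 7 BMP target and feedback genes passed in place of 13, and with the 4 arrays fitted alone 8 did; no member fell under any of these settings. The count of 4 among receptors and SMADs was 0 without BMP4 replicate 2, and 1 without control replicate 1, without control replicate 2 or with the 4 arrays alone. The 2 calls among BMP ligands became 0 without BMP4 replicate 2 or with the 4 arrays alone, and 1 when any other of the 4 arrays was left out.

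**Figure D2:**
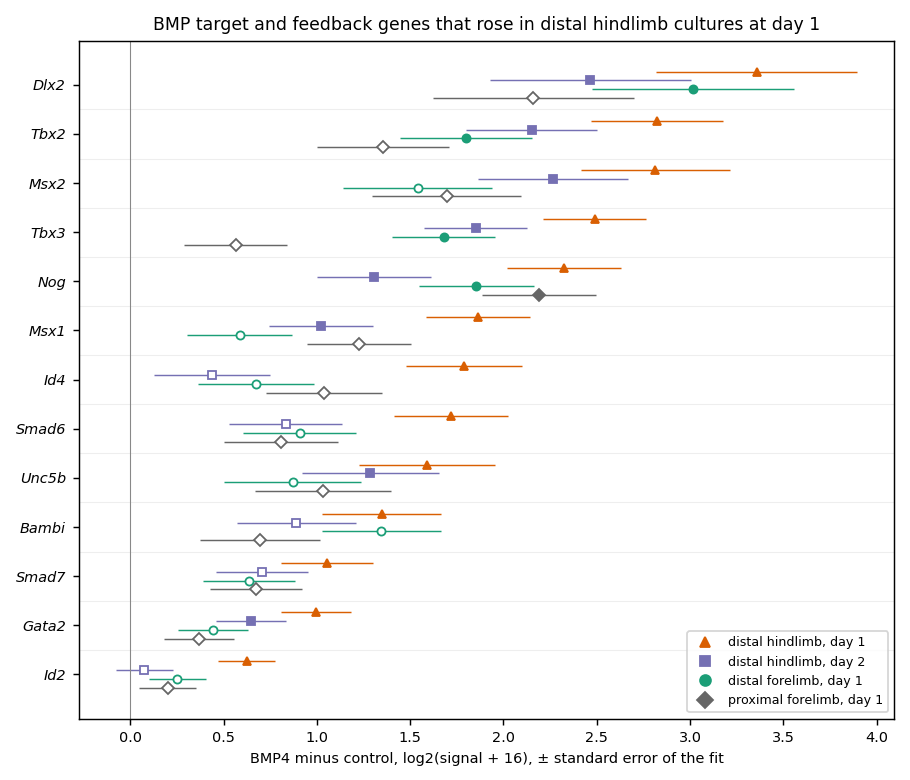
BMP4 minus control (horizontal axis, log2, with the standard error of the fit) for the 13 BMP target and feedback genes that rose in distal hindlimb cultures at day 1, in the 4 comparisons. Filled symbols passed the threshold in that comparison and open ones did not; Nog is filled in all 4, and Id4 only at day 1 in distal hindlimb, where it rose by 1.79.

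Promoter sequences are shown for a few of these genes because the SMAD complex binds GC-rich elements and the CAGAC element, and the letters can be read beside the response. They come from RefSeq (build GRCm38.p6) and run 5' to 3' on the gene's own strand over the 250 bases before the annotated start. Capitals mark GGCGCC and GGAGCC, the GC-rich elements, on either strand. Smad6 (chr9:64022060-64022309, minus strand), Id4 (chr13:48260866-48261115, plus strand) and Msx2 (chr13:53472781-53473030, minus strand) stand for targets that rose and hold 2 marked elements each. Tbx20 (chr9:24774304-24774553, minus strand), a T-box gene that rose, holds 0. Mycn (chr12:12941837-12942086, minus strand), a gene that fell, holds 1.
Smad6: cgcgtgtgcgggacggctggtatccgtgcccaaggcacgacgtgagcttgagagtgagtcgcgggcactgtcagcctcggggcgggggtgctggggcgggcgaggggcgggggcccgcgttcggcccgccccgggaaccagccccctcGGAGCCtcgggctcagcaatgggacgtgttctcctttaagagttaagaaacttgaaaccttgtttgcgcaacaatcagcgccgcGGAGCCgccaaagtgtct
Id4: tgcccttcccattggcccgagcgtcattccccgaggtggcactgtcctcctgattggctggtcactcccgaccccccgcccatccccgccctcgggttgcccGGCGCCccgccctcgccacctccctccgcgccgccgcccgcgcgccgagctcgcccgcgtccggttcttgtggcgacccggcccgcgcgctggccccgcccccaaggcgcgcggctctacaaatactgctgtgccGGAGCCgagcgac
Msx2: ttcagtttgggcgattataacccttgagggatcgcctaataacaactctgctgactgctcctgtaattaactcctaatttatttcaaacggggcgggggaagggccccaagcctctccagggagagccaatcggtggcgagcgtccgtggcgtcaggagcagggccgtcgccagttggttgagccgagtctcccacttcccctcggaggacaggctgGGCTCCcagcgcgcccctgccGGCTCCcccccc
Tbx20: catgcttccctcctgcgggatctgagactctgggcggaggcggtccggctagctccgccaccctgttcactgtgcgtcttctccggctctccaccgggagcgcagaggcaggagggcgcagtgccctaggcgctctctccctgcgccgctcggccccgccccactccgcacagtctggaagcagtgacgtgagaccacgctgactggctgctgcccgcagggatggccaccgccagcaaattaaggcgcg
Mycn: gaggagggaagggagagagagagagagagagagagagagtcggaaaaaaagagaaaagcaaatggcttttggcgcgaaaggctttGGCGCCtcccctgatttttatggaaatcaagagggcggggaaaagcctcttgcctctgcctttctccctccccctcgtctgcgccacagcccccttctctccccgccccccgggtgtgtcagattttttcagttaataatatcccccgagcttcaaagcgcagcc

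Such letters were common in both directions of change. A window of 250 bases before to 50 after the start was matched for 18 of the 25 genes with the largest rises (24 windows) and 19 of the 25 with the largest falls (21 windows). GGAGCC or its reverse complement stood in 66.7% of the windows of the rises, 57.1% of the falls and 40% of the 15200 windows of all tested genes, with 30.8% over all 32851 windows of the table. Over all called genes the share was 51.7% for the rises (269 windows) and 42.6% for the falls (169 windows), nearer to the 40% of all tested genes. GGCGCC stood in 25% of the windows of the 25 largest rises and 42.9% (9 of 21) of the largest falls, against 25.3% for all rises, 27.8% (47 of 169) for all falls, 19.4% for tested genes and 11.9% for the table. The median GC content of the windows was 59.8% for the largest rises, 64.7% for the largest falls, 62.7% and 63.3% for all rises and falls, 59.7% for tested genes and 52.7% for the table, and its part in the shares was not tested. For the largest rises, the largest falls, tested genes and the table, CAGAC stood in 50%, 38.1%, 48.2% and 49.6%, the GATA motif AGATAA in 4.17%, 0%, 7.12% and 11.2%, and the T-box motif GGTGTGA in 4.17%, 9.52%, 3.47% and 3.98%. A match is a run of letters and not a bound site.

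T-box, GATA and related factors held several of the largest changes. Tbx20, which builds the heart in the embryo, read 5.19 and 6.01 in control and 9.85 and 10.496 with BMP4, 4.57 ± 0.51 or 23.8-fold on its brightest probe set (adjusted p = 0.000114). Its other probe sets gave 1.37 (adjusted p = 0.0912) and 1.94 (adjusted p = 0.00274), and the mean of its probe sets 2.63, so the size depends on the probe set. The value of 4.57 is the largest rise at a pseudocount of 16; at a pseudocount of 1 Tbx20 stood at 5.12 and Grik3, a glutamate channel subunit, at 5.72. Tbx2 rose from 6.35 and 5.79 to 8.76 and 9.03, and Tbx3 from 6.14 and 6.02 to 8.65 and 8.49; both are repressors that mark the anterior and posterior limb margins. In contrast Tbx18 fell from 10.92 and 10.66 to 9.02 and 8.50 (-2.03 ± 0.23, adjusted p = 0.000154), and Tbx15 from 10.49 and 10.25 to 9.35 and 9.10 (-1.14 ± 0.22). The 11 tested T-box genes therefore counted 3 rises and 2 falls, with a median of 0.00.

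Of 8 tested GATA factors and their FOG cofactors 4 rose, with a median of 1.28. Gata6 read 5.87 and 6.06 in control and 8.56 and 8.78 with BMP4 (2.70 ± 0.42, adjusted p = 0.00154), and Gata2 7.72 and 7.86 against 8.65 and 8.92 (1.00 ± 0.19). The cofactors Zfpm1 and Zfpm2 rose by 1.57 ± 0.34 and 1.62 ± 0.43, and another probe set of Zfpm2 read -0.09. Gata3 had a larger difference than Gata2 and both cofactors, 2.33 ± 0.74, but its control arrays lay apart at 5.24 and 6.52 and it did not pass (adjusted p = 0.117). The GATA count was 1 without BMP4 replicate 2 or control replicate 1, and 2 without control replicate 2.

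Among other mesenchymal regulators Zeb2, a zinc finger repressor that binds SMADs, rose from 6.42 and 6.71 to 8.47 and 8.51 (1.93 ± 0.27, adjusted p = 0.000686). Prrx2, a homeobox factor of limb mesenchyme, rose from 8.60 and 8.58 to 10.16 and 10.65 (1.81 ± 0.22, adjusted p = 0.000242). Hand1 rose by 1.79 ± 0.46 (adjusted p = 0.042). Twist2, a basic helix-loop-helix factor of mesenchyme, fell from 9.32 and 8.83 to 8.07 and 8.0 (-1.04 ± 0.17), and Ebf3 by 1.65 on the log2 scale. The forkhead factor Foxp1 fell from 9.46 and 9.37 to 8.89 and 8.41 (-0.77 ± 0.19), with 1 of its other probe sets at 0.12. Of 25 tested Hox genes 0 passed in limma, and 3 had an unadjusted p under 0.05 (2342 of 14947 over all genes). The 2 with the smallest adjusted p were Hoxc6 at 0.52 ± 0.19 and Hoxc4 at 0.63 ± 0.27.

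The proximal limb factors that passed all fell. Of 19 tested 6 fell and 0 rose, with a median of -0.18. Osr2, an odd-skipped zinc finger factor, read 6.79 and 6.77 in control and 4.30 and 4.03 with BMP4 (-2.62 ± 0.42, adjusted p = 0.00202), and its relative Osr1 read 7.16 and 7.70 against 6.78 and 5.50 (-1.29 ± 0.33, adjusted p = 0.0401). Shox2, a homeobox factor required for the proximal limb skeleton, fell from 11.63 and 11.20 to 10.36 and 9.35 (-1.56 ± 0.25, adjusted p = 0.00172). Tbx18, Tbx15 and Tcf4 (-0.78 ± 0.20) were the others, and Tcf4 was named after its value was seen. Meis3 stood the other way at 1.10 ± 0.31 without passing (adjusted p = 0.0664). The count was 3 without BMP4 replicate 2 or control replicate 1.

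Some genes that report FGF signalling fell. Of the 25 tested members of the distal limb and FGF response list 4 fell and 1 (Msx1) rose, with a median of -0.22. Mycn, a growth-promoting transcription factor of the distal limb bud, read 9.77 and 9.57 in control and 7.85 and 7.81 with BMP4 (-1.84 ± 0.27, adjusted p = 0.000808). Etv5, an ETS factor induced by FGF, fell from 9.72 and 9.37 to 8.46 and 7.91 (-1.36 ± 0.22, adjusted p = 0.00221), and Il17rd, an FGF feedback inhibitor, from 8.87 and 8.89 to 7.74 and 7.92 (-1.05 ± 0.16, adjusted p = 0.00154). Spred2, another brake on the same cascade, fell by 0.56 on its brightest probe set. Its other probe sets read -0.41, 0.44 and 0.77, so its direction depends on the probe set. Dusp6 and Spry1 read -0.88 ± 0.28 and -0.56 ± 0.19 (adjusted p = 0.111 and 0.142). The list's 5 calls became 3, of which 2 were falls, without control replicate 1 or with the 4 arrays alone.

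One FGF ligand changed among 18 tested ligands and receptors: Fgf5 read 6.96 and 7.65 in control and 4.36 and 4.40 with BMP4 (-2.93 ± 0.52, adjusted p = 0.00443). Both treated values lie under the dim level, and its place as the largest fall is set by the pseudocount: at a pseudocount of 1 Fgf5 stood at -4.62 and Osr2 at -5.27. Another probe set of Fgf5 read -0.98 (limma, adjusted p = 0.31). Fgfr1, the main FGF receptor of this mesenchyme, read 10.10 and 10.51 against 9.90 and 9.86 (adjusted p = 0.296). Its other probe sets read -0.83 (limma, adjusted p = 0.0463) and -0.16 (adjusted p = 0.755), so whether Fgfr1 passed depends on the probe set. Lrig1 and Lrig3, transmembrane proteins that bind receptor tyrosine kinases, both fell. Lrig3 read 9.75 and 9.71 in control and 8.34 and 7.63 with BMP4 (-1.75 ± 0.23). Lrig1 read 7.56 and 7.29 against 4.73 and 4.46 (-2.83 ± 0.37); another probe set gave -2.81 and yet another 0.43, so the gene's value depends on the probe set.

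A receptor and its ligand rose together. Kit, a receptor tyrosine kinase, read 6.97 and 6.88 in control and 9.87 and 9.86 with BMP4 (2.94 ± 0.37, adjusted p = 0.000286), and its ligand Kitl read 7.22 and 7.11 against 8.55 and 8.73 (1.48 ± 0.23, adjusted p = 0.0014). Other probe sets of Kitl read 0.44, 0.59 and 0.86, and none of them passed (limma, adjusted p = 0.0644 to 0.324). The other members of the list of 33 receptor tyrosine kinases and ligands that passed were Lrig1 and Lrig3. The chemokine Cxcl12, which guides migrating precursor cells and blood cells, fell from 9.73 and 9.64 to 7.92 and 7.63 (-1.91 ± 0.22, adjusted p = 0.000164); it was the only one of 12 chemokines and receptors to pass.

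**Figure D3:**
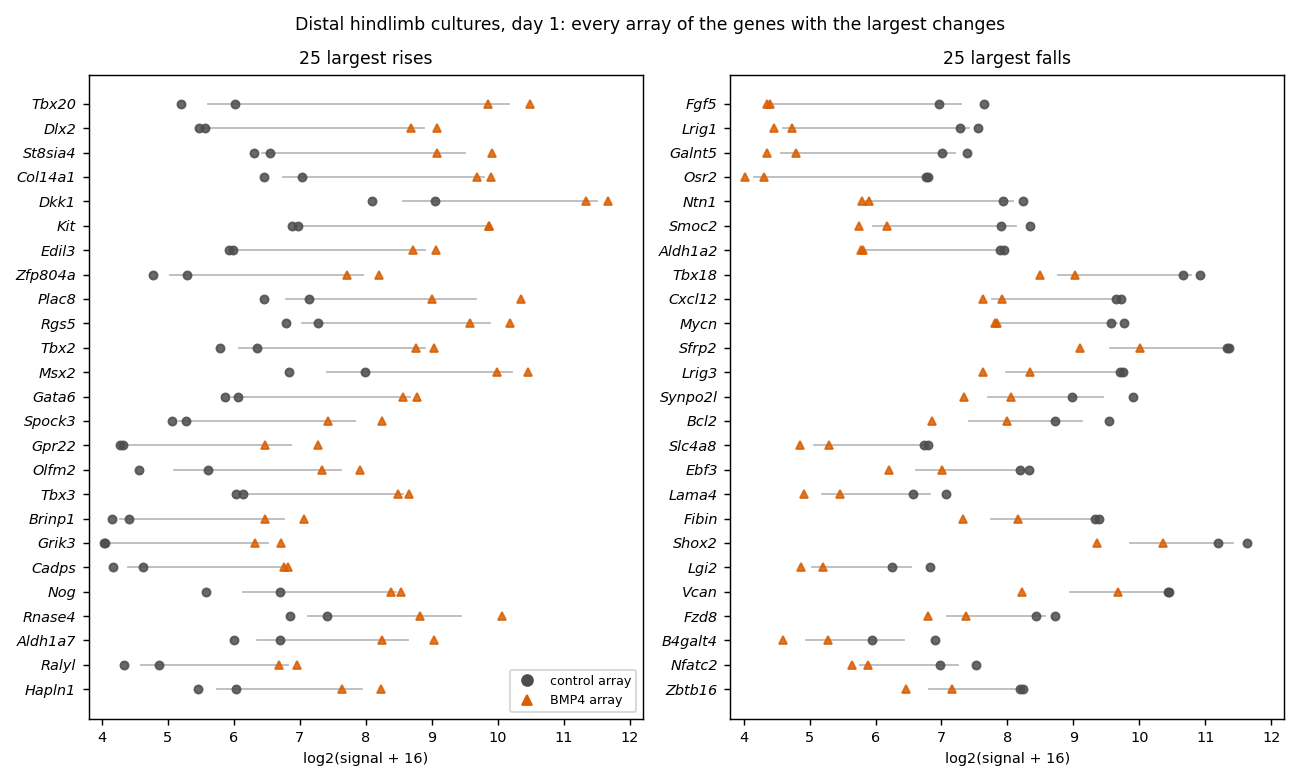
Level of the 25 genes with the largest rises (left) and the 25 with the largest falls (right) on each of the 4 arrays, log2(signal + 16) on the horizontal axis; grey circles are control arrays, orange triangles BMP4 arrays, and lines join the group means. At a pseudocount of 16 the rises run from Tbx20 (4.57) to Hapln1 (2.20) and the falls from Fgf5 (-2.93) to Zbtb16 (-1.40), and no gene shows overlap between the groups, which the choice of these genes required.

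WNT antagonists and receptors changed in both directions. Dkk1, a secreted inhibitor that blocks the LRP co-receptors, rose from 8.09 and 9.04 to 11.33 and 11.68 (2.94 ± 0.31, adjusted p = 7.06e-05). The frizzled-related antagonists went the other way: Sfrp2 fell from 11.36 and 11.33 to 10.01 and 9.11 (-1.79 ± 0.27), and Sfrp1 from 9.60 and 9.67 to 8.89 and 8.48 (-0.95 ± 0.23). Of 37 tested WNT ligands, receptors and targets 2 rose and 4 fell, with a median of -0.02. The receptors Fzd8 (-1.50 ± 0.21) and Fzd2 (-0.85 ± 0.22) fell while Fzd7 rose (0.76 ± 0.18, with another probe set at -0.14). Fzd2 was named after its value was seen. Wnt11 fell by 1.13 and Ccnd1, a cell cycle gene and WNT target, by 0.71 on the log2 scale, and Nkd1, a feedback inhibitor, rose by 0.94 ± 0.23. These 6 calls became 1 without BMP4 replicate 2, without control replicate 2 or with the 4 arrays alone, and 2 without control replicate 1 or with array weights.

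Guidance molecules held 8 rises and 2 falls among 34 tested, with a median of 0.22. The netrin system changed at both ends: Ntn1, the secreted ligand, fell from 7.93 and 8.24 to 5.91 and 5.79 (-2.23 ± 0.29, adjusted p = 0.000357), while the netrin receptors Unc5b (9.35 and 10.08 against 10.96 and 11.64, 1.59 ± 0.37), Unc5c (0.69 ± 0.15) and Neo1 (0.57 ± 0.14) rose. Semaphorins and plexins followed with Sema6d at 1.68 ± 0.28, Plxna2 at 1.18 ± 0.23, Plxnc1 at 1.02 ± 0.21 and Sema3a at 0.60 ± 0.14, and Slit3 rose by 1.47 ± 0.35. Sema6a fell by 1.01 on the log2 scale. Other probe sets of Sema6d and Plxnc1 read between -0.39 and 0.72 and between -0.05 and 0.43. Another probe set of Ntn1 read -0.67 (limma, adjusted p = 0.25). Neo1, Sema3a, Slit3 and Sema6a were named after their values were seen. The rises numbered 4 without BMP4 replicate 1, 2 without BMP4 replicate 2 or control replicate 2, 1 without control replicate 1 and 2 with the 4 arrays alone.

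Several of the largest rises were genes better known from nerve cells, a grouping made after their values were seen. Grik3, a subunit of a glutamate-gated channel, read 4.04 on both control arrays and 6.31 and 6.71 with BMP4 (2.47 ± 0.24, adjusted p = 2.9e-05). Gpr22, an orphan receptor, read 4.27 and 4.32 against 6.46 and 7.27 (2.58 ± 0.26, adjusted p = 3.92e-05), and Cadps, a factor of vesicle release, 4.17 and 4.62 against 6.82 and 6.77 (2.40 ± 0.30). Brinp1 rose by 2.49 ± 0.32, Olfm2 by 2.54 ± 0.34, Ralyl by 2.22 ± 0.25, and Spock3, a secreted proteoglycan, by 2.66 ± 0.39, with another probe set of Spock3 at -0.09. In 6 of these 7 (all but Olfm2) both controls lay under the dim level of 5.29 to 5.54, as they did in 31 of the 258 rises. Of the 4 arrays compared, only the treated ones lifted these 6 genes above that level. Their p-values are therefore taken against dim values and are no separate support for the rises. No detection calls were used, so the size of such a rise is a value on this scale and understates the ratio. Nerve and Schwann cell markers counted 0 rises and 0 falls among 13 tested in limma. Of these, 4 had an unadjusted p under 0.05 (2342 of 14947 over all genes). The mean level of these markers was 6.08 and 6.24 in control and 6.15 and 6.10 with BMP4.

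Adhesion and matrix genes changed one by one. St8sia4, the enzyme that adds polysialic acid to NCAM, read 6.54 and 6.30 in control and 9.92 and 9.08 with BMP4 (3.08 ± 0.23, adjusted p = 2.11e-06), the smallest adjusted p of the comparison. Another probe set of St8sia4 gave 1.34 (limma, adjusted p = 0.136) and the mean of its probe sets 2.21, so the size depends on the probe set. Cdh2 (N-cadherin) and Alcam, adhesion molecules of condensations, rose by 0.76 ± 0.20 and 0.79 ± 0.18, and the proteoglycan Sdc1 fell by 0.73 on the log2 scale. These and St8sia4 are the 4 calls of the condensation list, which became 2 without BMP4 replicate 1 or control replicate 1 and 1 with the 4 arrays alone. Edil3, an integrin-binding secreted protein, rose from 5.99 and 5.93 to 9.07 and 8.71 (2.93 ± 0.24, adjusted p = 6.44e-06).

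Fibrous matrix genes supplied 4 rises and 0 falls among 37 tested members of the tendon and fibrous matrix list (median 0.19). Col14a1, a collagen that associates with fibrils, rose from 6.46 and 7.04 to 9.90 and 9.68 (3.04 ± 0.36, adjusted p = 0.000225). Dcn, a small proteoglycan on collagen fibrils, rose from 6.13 and 6.56 to 8.0 and 7.77 (1.54 ± 0.25), Postn by 1.39 ± 0.30 and Pdgfrl by 1.12 ± 0.20. Another probe set of Dcn read 0.09 (limma, adjusted p = 0.966), and Dcn did not pass with the mean of probe sets. The count of 4 was 2 without BMP4 replicate 2 and 1 without control replicate 1. Col1a1 stood at 9.69 and 10.85 against 11.44 and 11.66 without passing (adjusted p = 0.13). The proteases Adamts5, Adamts9 and Adamts1, which cleave proteoglycans, rose by 1.44 ± 0.36, 1.33 ± 0.18 and 1.07 ± 0.24, and Timp3, an inhibitor of such enzymes, fell by 0.79. These 4 calls of the protease list became 1 without BMP4 replicate 1, without control replicate 1 or with the 4 arrays alone, and 2 without control replicate 2. Vcan, the large proteoglycan of condensing mesenchyme, read 10.44 and 10.46 in control and 9.67 and 8.22 with BMP4 (-1.50 ± 0.38, adjusted p = 0.044).

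Cartilage genes had few calls at day 1, and the treated replicates disagreed. Among 18 chondrogenic factors 0 rose and 0 fell in limma, with a median of -0.12. An unadjusted p under 0.05 was found for 5 of them (2342 of 14947 over all genes). Without BMP4 replicate 1 the count was 3 falls. Sox9, the factor that starts cartilage formation, read 9.66 and 9.51 in control and 9.66 and 8.06 with BMP4. Sox6 read 9.35 and 9.25 against 8.65 and 6.92, Sox5 7.45 and 7.35 against 8.32 and 6.71, and Col2a1, the main cartilage collagen, 11.56 and 11.46 against 11.30 and 10.05. In each of these 4 genes BMP4 replicate 2 was the lower treated array and the controls lay close together; adjusted p was 0.357, 0.181, 0.927 and 0.268. The whole chondrogenic list had a mean level of 8.05 and 7.86 in control and 7.91 and 7.44 with BMP4.

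Cartilage matrix counted 2 rises and 2 falls among 27 tested genes, with a median of -0.32. Without BMP4 replicate 1 it counted 1 rise and 5 falls (median -0.55), without BMP4 replicate 2 it counted 1 rise and 0 falls, without control replicate 1 it counted 0 rises and 1 fall, and without control replicate 2 or with the 4 arrays alone 1 of each. Hapln1, the link protein of the aggrecan complex, read 5.45 and 6.03 in control and 7.64 and 8.23 with BMP4 (2.20 ± 0.37, adjusted p = 0.00306), so it moved against the median of its list. Matn2 rose by 1.43 ± 0.34. Acan read 6.51 and 6.69 against 6.66 and 5.98, and Cnmd (chondromodulin) 8.44 and 8.03 against 6.85 and 5.54 without passing (adjusted p = 0.057).

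Of the other signals, retinoid genes gave 2 rises and 1 fall among 16: Aldh1a2, which makes retinoic acid, fell from 7.94 and 7.89 to 5.81 and 5.78 (-2.12 ± 0.56, adjusted p = 0.0493), while Rdh10, which makes its precursor, rose by 0.99 ± 0.21 and the binding protein Crabp1 by 1.91 ± 0.46. The retinoid count was 0 without BMP4 replicate 2, control replicate 1 or control replicate 2, and 1 with array weights or the 4 arrays alone; Aldh1a2 passed in 7 of 18 alternatives. Tgfb1 rose from 6.18 and 6.76 to 7.92 and 8.52 (1.75 ± 0.29) and Tgfbi, a matrix protein induced by TGF-beta, by 0.98 ± 0.18, and the receptor Tgfbr2 fell by 0.52 on the log2 scale. These 3 calls of the TGF-beta list became 0 without control replicate 1 and 1 without BMP4 replicate 2 or with the 4 arrays alone. Dlk1, a membrane protein of the Notch ligand family, rose by 1.05 ± 0.22. Bcl2, which blocks cell death, fell from 9.54 and 8.73 to 8.0 and 6.85 (-1.71 ± 0.40, adjusted p = 0.026), the only call among 18 apoptosis and p53 genes. Other probe sets of Bcl2 read -0.99, -1.04 and -0.23 (limma, adjusted p = 0.258, 0.182 and 0.755), and Bcl2 did not pass with the mean of probe sets.

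The remaining genes with the largest changes belong to no single list. Zfp804a, a zinc finger gene, rose from 5.30 and 4.77 to 8.20 and 7.71 (2.92 ± 0.26, adjusted p = 1.23e-05). Rnase4, a secreted ribonuclease, rose from 6.85 and 7.41 to 8.82 and 10.06 (2.31 ± 0.42), and Aldh1a7, an aldehyde dehydrogenase, by 2.29 ± 0.60 with an adjusted p of 0.0493, just inside the threshold. Galnt5, an enzyme that starts O-linked sugar chains, fell from 7.39 and 7.01 to 4.79 and 4.35 (-2.63 ± 0.44, adjusted p = 0.0027). Zbtb16, a zinc finger repressor that patterns the limb skeleton, fell from 8.24 and 8.19 to 7.16 and 6.47 (-1.40 ± 0.26), and Lama4, a laminin chain of basement membranes, from 7.07 and 6.57 to 5.45 and 4.91 (-1.64 ± 0.24). Synpo2l, Slc4a8, Fibin, Lgi2, B4galt4 and Nfatc2 fell by 1.48 to 1.75 on the log2 scale, and the other probe sets of Nfatc2 read between -0.25 and 0.29. In 16 of the 170 falls both BMP4 arrays lay under the dim level, Fgf5, Lrig1, Galnt5 and Osr2 among them.

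**Figure D4:**
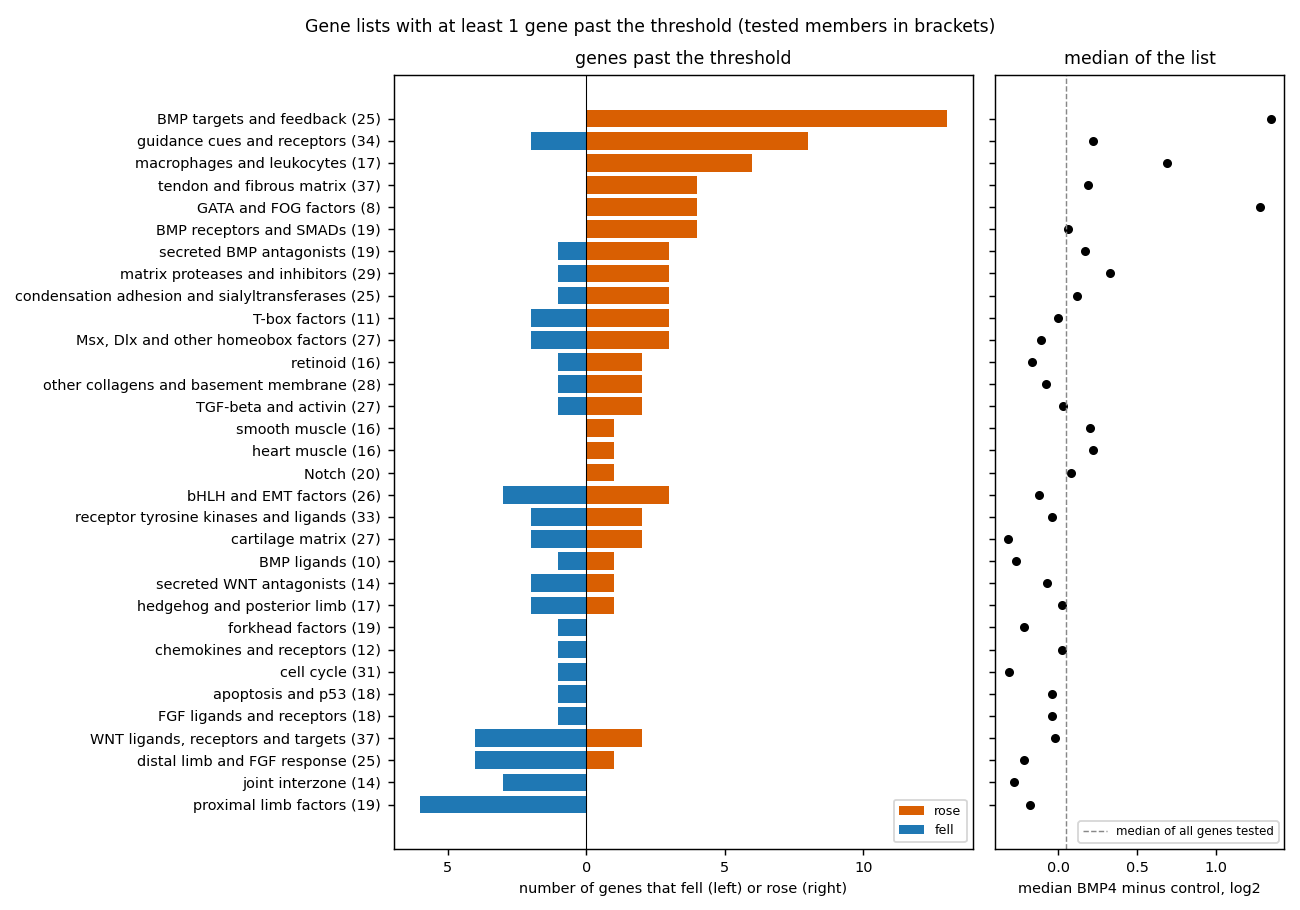
Number of genes that rose (orange, right) or fell (blue, left) in each list with at least 1 gene past the threshold, tested members in brackets, and beside it the median BMP4 minus control difference of the whole list (log2) with the median of all genes (0.05) dashed. BMP targets and feedback reach 13 rises and a median of 1.35; proximal limb factors reach 6 falls.

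Markers of other cells that a limb bud culture can hold were read on the same arrays. Of 17 tested macrophage and leukocyte genes 6 rose and 0 fell, and all 17 differences were above 0 (median 0.69, range 0.19 to 2.88). Plac8 rose from 6.45 and 7.14 to 9.00 and 10.36, Ctss, a lysosomal protease, from 7.01 and 7.48 to 8.18 and 8.61, and Csf1r, the receptor on which macrophages depend, from 7.87 and 7.96 to 8.44 and 8.70 (0.65 ± 0.15, adjusted p = 0.0261). The list's mean level was 6.07 and 6.27 in control and 6.92 and 7.23 with BMP4. It counted 0 calls without BMP4 replicate 2 or control replicate 1 and 1 with the 4 arrays alone. In bulk RNA more cells of a type and more RNA per cell cannot be told apart.

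Skeletal muscle genes counted 0 of 29 past the threshold in limma, with 2 at an unadjusted p under 0.05 (2342 of 14947 over all genes) and a median of -0.50. Their mean level was 6.57 on control replicate 1, 5.63 on control replicate 2, and 5.81 and 5.45 with BMP4, so 1 control array stood above the other 3. Endothelial markers stood at 5.77 and 5.90 in control and 5.88 and 5.83 with BMP4, and red blood cell markers at 6.03 and 5.68 against 6.05 and 5.95. Neither list had a call among 16 and 8 genes. In each, 2 genes had an unadjusted limma p under 0.05, against the same 2342 of 14947 over all genes. Rgs5, a marker of pericytes and smooth muscle, rose from 6.79 and 7.27 to 9.58 and 10.18 (2.85 ± 0.42, adjusted p = 0.000873), the only one of 16 smooth muscle genes to pass. The smooth muscle list's mean level was 8.28 and 8.71 in control and 8.81 and 9.08 with BMP4. The part of other cells in the results above was not tested.

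The other comparisons share no arrays with this one, but all use the same spread per gene, so their calls are not independent of those here. At day 2 in distal hindlimb 885 genes (5.92%) passed, at day 1 in distal forelimb 42 (0.281%) and in proximal forelimb 23 (0.154%). Of the 258 genes that rose here 128 also rose at day 2, which is 49.6% of these and 32.9% of the day 2 rises, and 64 of the 170 falls were shared (37.6% and 12.9%). In distal forelimb 22 rises and 9 falls were shared, 73.3% and 75% of the forelimb's own calls but 8.53% and 5.29% of the hindlimb's. In proximal forelimb 9 rises and 3 falls were shared, 47.4% and 75% of its own 19 rises and 4 falls and 3.49% and 1.76% of the hindlimb's. Called in opposite directions were Fam114a1, which rose by 0.44 here and fell by 0.46 at day 2, and Sparcl1, which fell here and rose in both forelimb populations. Fam114a1 was named after its values were seen. The direction was shared more widely than the calls: 240 of the 258 rises had a positive difference at day 2 (median 0.75), 231 in distal forelimb (0.45) and 232 in proximal forelimb (0.42). For the 170 falls 159, 153 and 146 were negative, with medians of -0.55, -0.40 and -0.31. Over all tested genes the medians of these 3 comparisons were 0.02, -0.01 and 0.005. The forelimb lists of calls are short, and a call that is missing there does not show that the gene did not respond.

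In all 4 comparisons 6 genes rose (Tbx20, Dkk1, Nog, Col14a1, Kif26b and Mbnl1) and 1 fell (Mtm1, a lipid phosphatase). Tbx20 rose by 4.57 ± 0.51 here, 4.73 ± 0.51 at day 2, 2.92 ± 0.51 in distal forelimb and 2.79 ± 0.51 in proximal forelimb. Dkk1 rose by 2.94, 2.44, 1.91 and 2.95 ± 0.31 in the same order, and Nog by 2.32, 1.30, 1.86 and 2.19 ± 0.31. Mtm1 had 4 close values, -0.82, -0.58, -0.85 and -0.82 ± 0.13. Kif26b, Mbnl1 and Mtm1 were named after their values were seen.

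The response differed from distal forelimb at day 1 in 4 genes (0.0268% of those tested) and from proximal forelimb in 5 (0.0335%), by a test of the difference itself. St8sia4 rose by 3.08 in hindlimb on its brightest probe set. It read 5.78 and 5.72 in control and 6.05 and 6.44 with BMP4 in distal forelimb, and 6.95 and 7.41 against 7.63 and 7.77 in proximal forelimb. Its responses therefore differed by 2.58 ± 0.32 (adjusted p = 0.00253) and 2.56 ± 0.32 (adjusted p = 0.00321). With the 8 arrays of each pair of populations fitted alone, limma called 0 genes. An unadjusted p under 0.05 was found for 449 of 14147 genes (distal forelimb) and 806 of 14263 (proximal forelimb). A share near 0.05 is what that threshold gives when no gene differs.

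Gpr22 stayed between 4.16 and 4.31 on all 8 forelimb arrays of day 1 and reached 6.46 and 7.27 on the treated hindlimb arrays, and its responses differed by 2.62 ± 0.36 and 2.54 ± 0.36 (adjusted p = 0.00676 and 0.0102). Every untreated hindlimb and every forelimb value of Gpr22 at day 1 lies under the dim level, and the gene was tested because the treated hindlimb arrays are above it, so the sizes of these differences are taken against dim values. Ralyl differed from distal forelimb by 2.24 ± 0.35 (adjusted p = 0.0202), with its hindlimb controls and all 4 distal forelimb arrays under the dim level as well; against proximal forelimb the difference was 1.34 ± 0.35 and did not pass. Sparcl1, a secreted matrix protein related to SPARC, went opposite ways. It read 7.92 and 7.95 in control and 7.51 and 7.07 with BMP4 in hindlimb, 7.91 and 7.93 against 9.88 and 9.31 in distal forelimb and 7.36 and 7.31 against 8.58 and 8.52 in proximal forelimb. The differences were -2.32 ± 0.24 (adjusted p = 0.000268) and -1.86 ± 0.24 (adjusted p = 0.00321). Sparcl1 fell in hindlimb with an adjusted p of 0.0467, just inside the threshold, and rose in both forelimb populations.

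Dscam, an adhesion molecule, and Trim47, a ubiquitin ligase, differed from proximal forelimb by -2.30 ± 0.37 (adjusted p = 0.0284) and -2.31 ± 0.35 (adjusted p = 0.0172). Against distal forelimb their differences of -1.15 ± 0.37 and -1.57 ± 0.35 did not pass. Trim47 fell in hindlimb from 5.81 and 6.17 to 4.89 and 4.55 and read 5.86 and 5.42 against 6.89 and 6.46 in proximal forelimb, where the response of 1.04 ± 0.25 did not pass. Between days in hindlimb 1 gene differed (0.00669%): Kitl rose by 1.48 ± 0.23 at day 1 and stood at -0.71 ± 0.23 at day 2, a difference of -2.18 ± 0.32 (adjusted p = 0.0443). This call was lost with a pseudocount of 1, with quantile or median scaling, and when any of the 4 hindlimb arrays of day 1 was left out. Kit stayed up at day 2 (2.27 ± 0.37). For Tbx2, Tbx3, Msx2, Osr2, Mycn and Gata6, whose hindlimb values at day 1 were larger in size than both forelimb values, the differences did not pass, with Tbx3 against proximal forelimb at 1.92 ± 0.39 (adjusted p = 0.127) and Gata6 against distal forelimb at 2.38 ± 0.60 (adjusted p = 0.397).

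**Figure D5:**
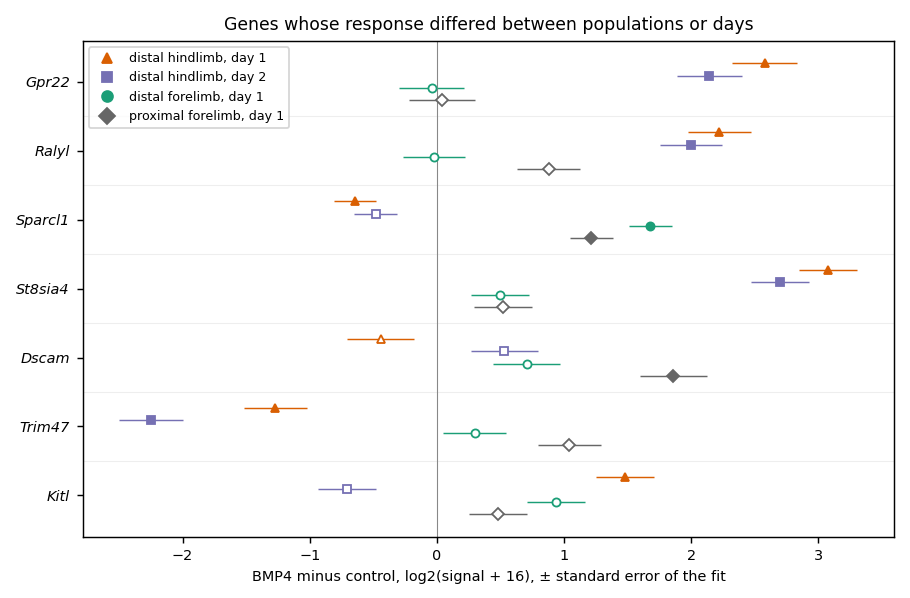
BMP4 minus control (log2, with the standard error of the fit) in the 4 comparisons for the 7 genes whose response differed between populations or days. Filled symbols passed the threshold in their own comparison. Gpr22 and St8sia4 stand at 2.58 and 3.08 in hindlimb at day 1 and near 0 to 0.52 in both forelimb populations, where Gpr22 lies under the dim level on every array, and Sparcl1 lies below 0 in hindlimb and above 1 in forelimb.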

How the data were processed

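The deposited series matrix holds 1 linear signal intensity per probe set and array. The submitters' processing notes name MAS5; no source used here gives its settings or detection calls. Of 45101 probe sets, 64 were controls, 34945 had 1 gene symbol in the platform annotation, 932 several and 9160 none; 34741 matched a gene of GRCm38.p6 by number, 0 renamed. Values were used as log2(signal + 16) without rescaling. A probe set was kept when above its array's 40th percentile (signal 20.2 to 30.5) on at least 2 of the 24 arrays of days 1 and 2, and the brightest per gene was used, which left 14947 genes. The differences of dim genes are understated on this scale.

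Groups came from the labels. A group-means model over those 24 arrays (12 groups of 2, residual degrees of freedom 12, prior 5.21) was fitted in R 4.3.3 by limma 3.58.1, using a mean-variance trend and two-sided Benjamini-Hochberg adjustment at 0.05; all groups share 1 spread per gene, which can understate that of unequal replicates. The day 0 arrays were left out. Comparisons were BMP4 against control in distal hindlimb at day 1 and the difference of that response from distal and proximal forelimb at day 1 and from day 2. The procedure was tested on simulated data.

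The members, the 46 gene lists and the rules were chosen with earlier results of these data known. Of 957 listed genes 833 were tested. Named genes are the 25 largest rises and falls whose arrays do not overlap, all members of the 6 BMP, GATA and T-box lists, up to 5 past the threshold and 2 not past it from every other list, up to 6 each way from each difference, and Sox9, Sox5, Sox6, Col2a1, Acan, Hapln1, Id1 to Id4, Pitx1, Tbx4, Tbx5, Hand2 and Hbb-bh1 (not tested); others are said to be named after their values were seen. Motifs were counted on both strands of RefSeq promoter windows.

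Alternatives covered the pseudocount, scaling, filter, probe set rule, arrays in the fit, variance model, array weights, a replicate block and leaving out each array. Of the 111 named genes past the threshold 74 have other probe sets. In 64 all share the sign, and 0 passed in the opposite direction. With the mean of probe sets 24 of the 111 lost their call and 1 turned.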

Additional observations from a re-analysis of the deposited data

Results flagged for a closer look

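The difference of the BMP4 response between distal hindlimb and distal forelimb at day 1 passed in 4 genes: St8sia4 (2.58), Gpr22 (2.62), Ralyl (2.24) and Sparcl1 (-2.32). Between distal hindlimb and proximal forelimb it passed in 5 genes: St8sia4 (2.56), Gpr22 (2.54), Dscam (-2.30), Sparcl1 (-1.86) and Trim47 (-2.31). Between day 2 and day 1 in distal hindlimb it passed in 1 gene, Kitl (-2.18). Each was singled out because the test of the difference itself passed (limma, adjusted p under 0.05); all values are log2 differences of 2 responses. For Gpr22 the forelimb arrays and the untreated hindlimb arrays of day 1 lie under the dim level.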

How the results depend on the processing

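The count of 428 genes stayed within 1.5 times under a pseudocount of 1 or 64, quantile or median scaling, no filter, the 60th percentile filter, the mean of probe sets, all 30 arrays, no trend, robust moderation and array weights (301 to 439). It was 108 with the 4 arrays alone, and 116 to 342 when 1 array was left out. The replicate block gave 787 genes, and a block common to the 24 arrays, added after seeing the data, gave 817. The replicate numbers were not taken as pairs: replicate differences of control and treated arrays correlated at 0.25 in this comparison, at 0.30, 0.22, 0.22 and 0.19 in 4 others and at 0.07 in late day 2, and this group has only 2 pairs. With the block, the differences from distal forelimb, proximal forelimb and day 2 counted 11, 21 and 22 genes, and with the common block 13, 21 and 26.

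The difference from distal forelimb (4 genes) counted 2 with a pseudocount of 1, 7 with 64, 2 with the 60th percentile filter, 0 with its 8 arrays alone, and 2 to 11 without 1 array. The difference from proximal forelimb (5 genes) counted 8 with no filter, 3 with the mean of probe sets, 8 without trend, 0 with its 8 arrays alone, and 2 to 19 without 1 array. The difference between days (Kitl) counted 0 with a pseudocount of 1, quantile scaling, median centring, no filter, the mean of probe sets, all 30 arrays or no trend, and 0 to 6 without 1 array. Where a count was 0 with the 8 arrays alone, limma gave 449 of 14147 and 806 of 14263 genes at an unadjusted p under 0.05. For the difference between days, where the count was 0 with no array left out, it gave from 987 of 14947 genes (mean of probe sets) to 1280 of 18193 (no filter). A share near 0.05 is what that threshold gives when no gene differs.

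Of the 111 named genes past the threshold, 37 passed in every alternative run: Tbx20, Dlx2, St8sia4, Col14a1, Dkk1, Kit, Edil3, Zfp804a, Rgs5, Tbx2, Msx2, Gata6, Spock3, Gpr22, Olfm2, Tbx3, Brinp1, Grik3, Cadps, Nog, Ralyl, Osr2, Ntn1, Tbx18, Cxcl12, Mycn, Sfrp2, Lrig3, Fzd8, Msx1, Chrdl2, Bmper, Prrx2, Zeb2, Il17rd, Adamts9 and Kitl. Each of the other 74 lost its call, or turned, under at least 1 alternative. Leaving out control replicate 1 lost 62 and BMP4 replicate 2 lost 57. Lrig1 turned to 0.43 with the 4 arrays alone, where another probe set was the brightest, and Spred2 to 0.0587 with the mean of probe sets. The cause of the other changes was not tested.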

Other observations

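Some genes of growth metabolism fell in small steps in distal hindlimb cultures after 1 day of BMP4. These lists were drawn up after the values were seen, partly from genes that had passed, so the counts describe and support nothing. Of 65 tested genes of ribosome biogenesis and the nucleolus 8 fell and 0 rose, 60 of the 65 differences were below 0, and the median was -0.34 against 0.05 for all genes. Polr1b, a subunit of the polymerase that makes ribosomal RNA, read 7.97 and 7.90 in control and 6.97 and 7.22 with BMP4 (-0.85 ± 0.15, adjusted p = 0.00371). Ddx21, a nucleolar helicase, fell by 0.76 and Nop56, a part of the particles that modify ribosomal RNA, by 0.66 on the log2 scale. Of 31 genes of nucleotide and one-carbon synthesis 6 fell and 0 rose (median -0.30), among them Tk1, a thymidine kinase, from 8.70 and 8.24 to 7.34 and 7.25 (-1.18 ± 0.28), and Gart, a purine synthesis enzyme (-0.70 ± 0.13). Of 22 genes of serine and asparagine synthesis and of tRNA charging 5 fell and 0 rose, and all 22 were below 0 (median -0.40), with Asns, which makes asparagine, at 10.98 and 10.65 against 9.99 and 10.32 (-0.66 ± 0.14) and Psat1, of serine synthesis, at -0.71 ± 0.18. The mean level of the ribosome list was 8.87 and 8.84 in control and 8.43 and 8.58 with BMP4, and the brightest 3736 of all genes had a median of -0.02. With the 4 arrays alone limma called 0 genes in each of these lists while the medians were -0.34, -0.29 and -0.40. The list medians at day 2 were -0.14, -0.28 and -0.17, in distal forelimb -0.21, -0.19 and -0.10, and in proximal forelimb -0.25, -0.24 and -0.33. Cell cycle genes had a median of -0.31, with 1 of 31 past the threshold.

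Lysosomal genes stood the other way, by lists drawn up in the same manner. Of 45 tested 6 rose and 0 fell (median 0.23). Lamp2, a lysosomal membrane protein, read 10.22 and 10.16 in control and 10.91 and 10.94 with BMP4 (0.73 ± 0.10, adjusted p = 0.00066), Ctso, a cysteine protease, 7.17 and 7.13 against 8.12 and 8.14 (0.98 ± 0.16) and Ctsb, another, 10.11 and 10.08 against 10.59 and 10.62 (0.52 ± 0.12). Ctss is also a macrophage gene, and macrophage markers were higher in the same arrays; their part in the rise of the list was not tested. The count was 0 with the 4 arrays alone and 2 without BMP4 replicate 2 or control replicate 1. Of 62 genes listed as synaptic, channel or neuronal receptor genes 9 rose and 1 fell (median 0.33), including Gria4 (1.42 ± 0.23) and Rims1 (1.30 ± 0.23). The other rises were Spock3, Gpr22, Olfm2, Brinp1, Grik3, Cadps and Ralyl, already named among the largest rises, and Spock3 is a secreted proteoglycan. The count therefore supports nothing, and neither does the count of 8 rises with the 4 arrays alone. The dimmest 3737 of all genes had a median of 0.13.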
